A study of Mus musculus with 12 samples.

Results

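The open chromatin around 5 mouse genes was described: Rgs2, Rgs13 and Rgs1, which lie side by side on chromosome 1, Mdfic on chromosome 6 and Hdac9 on chromosome 12. All ATAC-seq peaks of 12 libraries were taken from 3 windows of the NCBIM37 genome build, and peaks that overlapped or touched were merged into elements. The windows held 75 of the 40457 elements in the series: 26 in the Rgs window (chromosome 1 from 145800000 to 146150000), 28 in the Mdfic window (chromosome 6 from 15550000 to 15850000) and 21 in the Hdac9 window (chromosome 12 from 34700000 to 35650000). The windows had been chosen from the same peak lists, because many of their peaks were found in regulatory T cells and in no conventional T cell library. Differences between these cell types are therefore given as a description, without a test.

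ATAC-seq marks open chromatin by the cuts of a transposase. The libraries came from 100000 sorted CD4+ T cells each, from the spleens of Foxp3-IRES-EGFP reporter mice, in which GFP marks cells that express Foxp3, the defining transcription factor of regulatory T cells. There were 3 libraries in each of 4 groups: GFP-positive regulatory T cells (Treg) from animals labelled Lrrc32+ 70k enhancer KO (KO), Treg from wild-type animals (WT), GFP-negative conventional T cells (Tconv) from KO animals, and Tconv from WT animals. Every animal carried the reporter, and the KO animals lacked an enhancer of Lrrc32, the gene of the Treg surface protein GARP. Age, sex and the number of animals are not given in the labels, so the spread between libraries may in part be technical. The sort was not checked against the peaks at Foxp3 or other defining genes, because no annotation of NCBIM37 was used here.

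RGS proteins end the signal of G protein-coupled receptors, chemokine receptors among them, by speeding the hydrolysis of GTP on the G protein's alpha subunit. Rgs1 is known as a brake on lymphocyte migration, Rgs2 acts on several receptor pathways, and Rgs13 is best known from germinal centre B cells and mast cells. Mdfic encodes an I-mfa domain protein that binds and restrains transcription factors. Hdac9 encodes a class IIa histone deacetylase that works as a corepressor, and mice without it have been described as having more, and more suppressive, Treg.

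The sequences below are the 250 bases before the annotated starts of these genes, shown because the windows are named after them and because they differ widely in base composition. They are RefSeq sequences of build GRCm38.p6. The promoter set used held entries for 4 of the 5 genes and none for Rgs1. Capitals mark motif letters found by search on both strands, and each sequence reads 5′ to 3′ on the gene's strand (minus for Rgs2, Rgs13 and Hdac9, plus for Mdfic).
Rgs2: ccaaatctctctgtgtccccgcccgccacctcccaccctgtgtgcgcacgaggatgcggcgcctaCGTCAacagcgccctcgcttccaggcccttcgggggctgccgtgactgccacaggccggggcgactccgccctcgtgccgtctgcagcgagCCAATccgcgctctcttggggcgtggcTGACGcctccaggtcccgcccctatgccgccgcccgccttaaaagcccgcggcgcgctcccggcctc
Rgs13: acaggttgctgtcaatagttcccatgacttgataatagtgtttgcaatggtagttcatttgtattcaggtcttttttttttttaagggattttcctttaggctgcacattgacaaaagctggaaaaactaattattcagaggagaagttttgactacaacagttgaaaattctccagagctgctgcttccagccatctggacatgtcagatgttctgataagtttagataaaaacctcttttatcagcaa
Mdfic: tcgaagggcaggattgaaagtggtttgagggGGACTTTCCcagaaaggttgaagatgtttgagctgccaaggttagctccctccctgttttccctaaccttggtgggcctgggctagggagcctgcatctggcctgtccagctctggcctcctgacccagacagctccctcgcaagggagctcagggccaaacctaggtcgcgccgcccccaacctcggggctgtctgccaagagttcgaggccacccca
Hdac9 (second listed start): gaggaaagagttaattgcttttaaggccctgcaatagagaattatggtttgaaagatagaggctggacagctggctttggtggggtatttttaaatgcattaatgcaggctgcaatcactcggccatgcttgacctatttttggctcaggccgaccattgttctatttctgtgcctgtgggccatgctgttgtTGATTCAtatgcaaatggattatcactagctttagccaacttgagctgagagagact

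The Rgs2 promoter was rich in CG pairs, with 30 in 250 bases and a GC content of 72.4%. Rgs13 had 0 CG pairs at 36.0% GC, Mdfic had 7 at 60.8%, and the Hdac9 starts had 0 and 2 at 44.4% and 43.6%. Over the 32851 promoters of the promoter set the median was 6 CG pairs and 52.4% GC. The motifs searched were TGANTCA (AP-1), TGTTTAC (forkhead), TGTGGTT (RUNX), GGACTTTCC (kappa B), CCGGAAG (ETS), TGACG (the core of a cyclic AMP response element) and CCAAT, a set chosen after the sequences had been seen. Rgs2 held TGACG at 185 and 67 bases before the start and CCAAT at 94, letters present in 17.8% and 33.9% of all promoters. Mdfic held GGACTTTCC at 219 bases before the start (0.283% of all promoters), and the second Hdac9 start held TGANTCA at 57 (6.75%). The Rgs13 promoter and the first Hdac9 start held none of the 7. The forkhead, RUNX and ETS letters, found in none of these 5 promoters, occurred in 3.17%, 4.396% and 6.91% of all promoters. A match is a description of letters, not of a bound site. No sequence of the elements themselves was read, and whether an element is a promoter, an exon or an intron was not determined.

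Presence of a peak was counted per library, and strength was given as a percentile: the rank of an element's strongest peak among all peaks of the same list by the authors' −log10 p. Each list held 21269 to 27605 peaks except that of KO Treg replicate 2, which held 5262 and reached only 3 of the 75 elements. All lists stopped at a −log10 p of about 5 (5.01 to 5.06), so an element without a peak may lie just under that limit. Read depth is unknown. In these bulk libraries, a peak in fewer cells and a weaker peak per cell cannot be told apart.

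The 3 windows were alike in having many elements open in Treg and not in Tconv, and unlike in what surrounded them. An element was called Treg-only when at least 3 of 6 Treg libraries and none of 6 Tconv libraries had a peak, and shared when at least 3 of 6 libraries of each cell type had one. Of the 75 elements, 30 were Treg-only, 20 were shared and 1 was Tconv-only, an element of the Rgs window. A further 15 had a peak in a single library, in each case of Treg, and 9 had other patterns. With stricter peaks (−log10 q of at least 5) the Treg-only count was 19, with 8 in the Rgs, 4 in the Mdfic and 7 in the Hdac9 window, and it was 0 when every list was cut to its 5262 strongest peaks. Over the 32787 elements of the genome that occurred in at least 2 libraries, 7.63% were Treg-only, 5.97% Tconv-only and 60.6% shared. Among the 60 window elements in at least 2 libraries the Treg-only share was 6 of 20 in the Rgs window, 9 of 22 in the Mdfic window and 15 of 18 in the Hdac9 window, and nothing is read from it since it chose the windows. The name Treg-only therefore describes most of the Hdac9 window, and 30.0% and 40.9% of these elements in the Rgs and Mdfic windows.

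**Figure D1:**
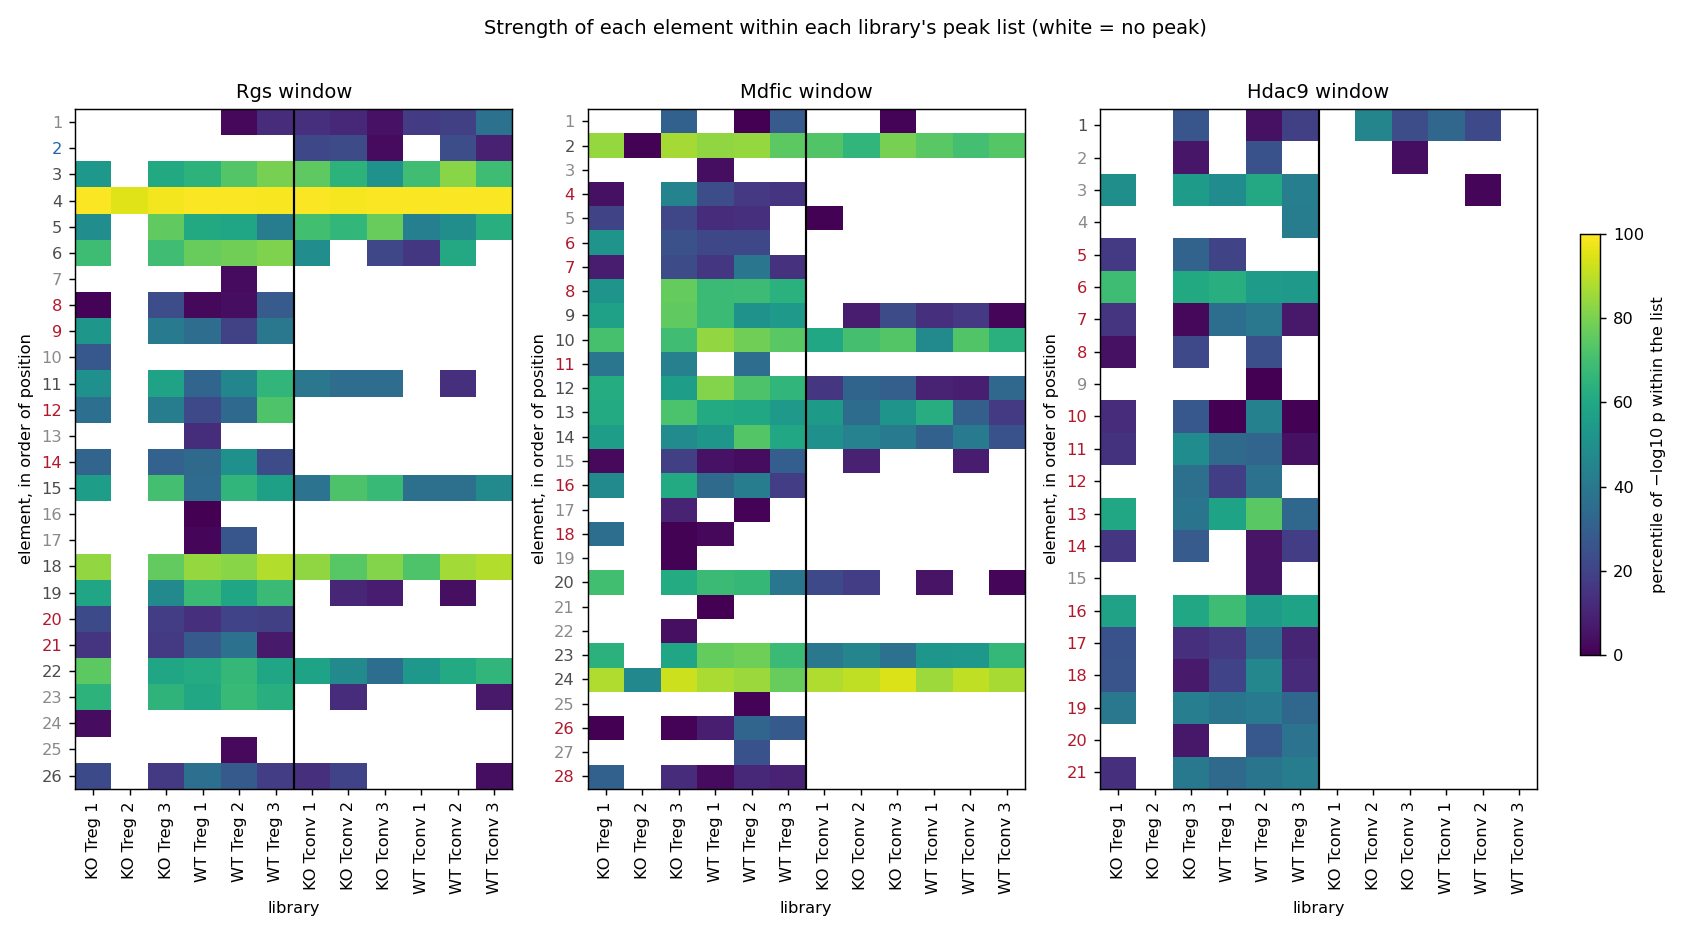
Percentile of −log10 p within each library's own peak list (colour, 0 to 100, white for no peak) for every element of the Rgs, Mdfic and Hdac9 windows, in order of position, in 12 libraries. Red element numbers are Treg-only, dark grey shared, blue Tconv-only and light grey other; the Hdac9 panel is almost empty right of the line, where the 6 Tconv libraries stand, and the column of KO Treg replicate 2 holds only 3 peaks over all panels.

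Of the 30 Treg-only elements, 22 had a peak in all 5 Treg libraries other than KO Treg replicate 2, a pattern found at 3.16% of the genome's elements. None had a peak in KO Treg replicate 2. The other 8 had a peak in 4 Treg libraries (2 elements) or in 3 (6 elements, just inside the threshold), and 2 elements with a peak in 2 Treg libraries and no Tconv library lay just outside it. By library, the 30 elements had a peak at 28, 0 and 30 in KO Treg replicates 1 to 3 and at 26, 28 and 24 in WT Treg replicates 1 to 3. These are shares of 93.3%, 0% and 100% in KO Treg and of 86.7%, 93.3% and 80.0% in WT Treg. Over all 2502 Treg-only elements of the genome the shares were 84.6%, 2.04% and 85.9% in KO Treg and 81.6%, 85.3% and 71.3% in WT Treg. In both sets WT Treg replicate 3, with the shortest of the other Treg lists, came lowest apart from KO Treg replicate 2.

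Treg-only elements of the windows were wider than those of the genome, with a median of 776.5 bp against 553 bp, and of similar rank, with a median Treg percentile of 23.6 against 25.1. A width spans the merged peaks of all libraries, so it can grow with their number. In the windows 22 of the 30 had 5 Treg libraries, against 994 with 5 and 41 with 6 among the genome's 2502. The part of this in the width was not tested. Shared elements of the windows ranked at a median Treg percentile of 62.8 and a median width of 1087.5 bp, against 57.2 and 948 bp for shared elements of the genome. Most Treg-only elements thus ranked low, and 4 of the 30 had a mean above 50, Mdfic element 8 and Hdac9 elements 6, 13 and 16. Their fold enrichment over background, the authors' value for each peak, ran from 3.05 to 9.17 in the 5 longer Treg lists, with a median of 4.94. Shared elements ran from 2.55 to 8.67 in these lists, with a median of 5.27.

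**Figure D2:**
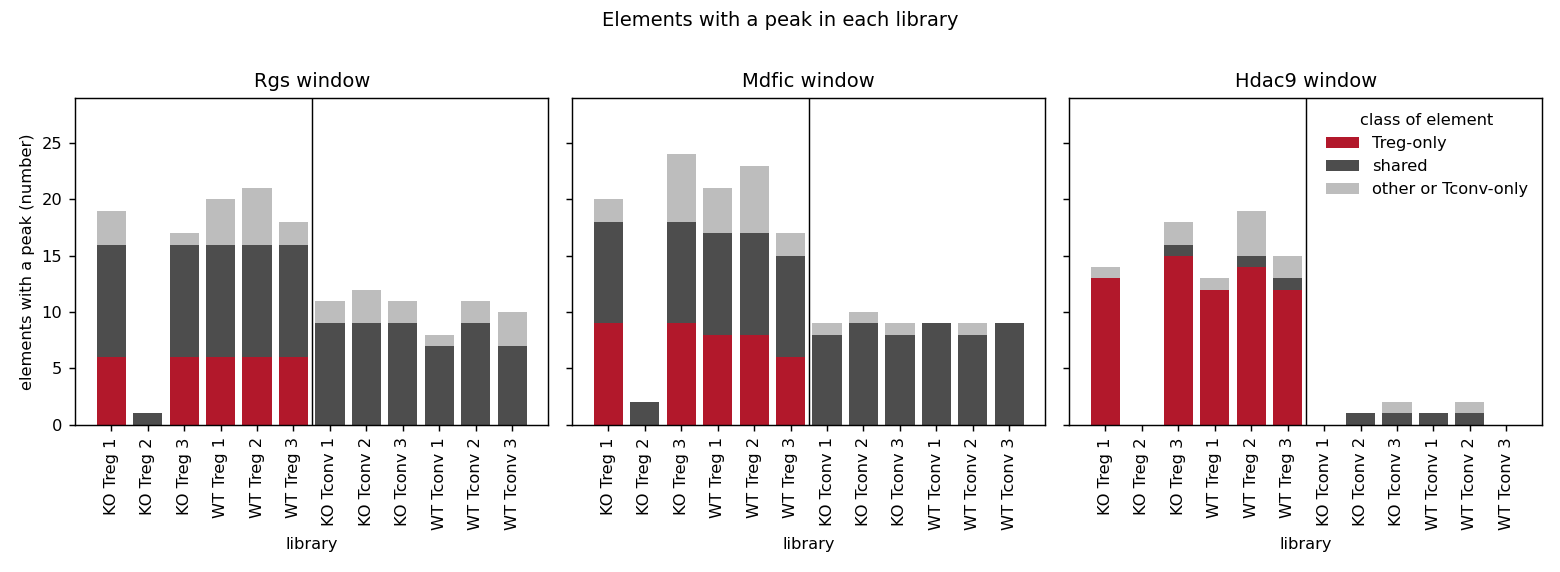
Number of elements with a peak (y axis) in each of the 12 libraries (x axis), for the Rgs, Mdfic and Hdac9 windows, with bars split by class of element. In the Hdac9 window KO Treg replicates 1 and 3 and the 3 WT Treg libraries have 13 to 19 elements, against 0 to 2 in every Tconv library.

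The Rgs window, with the family of G protein signalling brakes, was a mixture. Its 6 Treg-only elements lay in 3 pairs between chromosome 1 positions 145923162 and 146112406, with shared elements on both sides and between them. All 6 had a peak in the same 5 Treg libraries, KO Treg replicates 1 and 3 and the 3 WT Treg libraries, a pattern that 994 elements of the genome had (3.03%). The strongest was element 12 (146050086 to 146050838), with percentiles of 36.6 and 42.2 in KO Treg replicates 1 and 3, and of 22.0, 34.3 and 72.5 in the WT Treg libraries. Its mean was 41.5 ± 18.8 (SD, n = 5 libraries), and the WT values enclosed both KO values.

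Rgs element 9 (145933266 to 145933894) had percentiles of 53.1 and 41.4 in KO Treg replicates 1 and 3, and of 35.6, 19.5 and 40.1 in WT Treg, a mean of 37.9 ± 12.2 (SD, n = 5). Rgs element 14 (146061779 to 146062862) had 32.7 and 31.4 in KO Treg, and 34.4, 50.1 and 23.0 in WT Treg, a mean of 34.3 ± 9.83. The other 3 ranked lower. Elements 20 (146105420 to 146105916) and 21 (146111177 to 146112406) averaged 18.8 ± 3.14 and 21.1 ± 12.04 (SD, n = 5 each). Element 8 (145923162 to 145924050) averaged 11.8 ± 13.3, with percentiles of 0.842 and 23.4 in KO Treg and of 2.19, 3.66 and 28.9 in WT Treg, close to the limit of the lists in 3 of these 5 libraries.

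The strongest element of the Rgs window was open in every library. Element 4 (145850713 to 145851985) had percentiles of 99.5, 95.3 and 98.4 in KO Treg, of 99.2, 99.5 and 99.1 in WT Treg, of 99.6, 98.6 and 99.3 in KO Tconv and of 99.4, 99.4 and 99.2 in WT Tconv. It was the only element of this window with a peak in KO Treg replicate 2. Its fold enrichment was moderate, 4.72 to 6.005 in the 5 longer Treg lists and 4.71 to 6.38 in the Tconv lists, and ranked by fold it stood at a mean percentile of 50.1 in place of 98.9. Element 18 (146095490 to 146096686) was likewise high in both cell types, at 83.0 ± 4.53 in Treg (SD, n = 5) and 81.0 ± 6.51 in Tconv (SD, n = 6).

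Elements of the Rgs window with peaks in both cell types were not all equal between them. Element 6 (145880079 to 145881380) had percentiles of 68.8 and 69.5 in KO Treg replicates 1 and 3 and of 76.8, 78.2 and 80.6 in WT Treg. In Tconv it had 49.0 and 21.4 in KO replicates 1 and 3, 16.4 and 60.4 in WT replicates 1 and 2, and no peak in the other 2 libraries. Element 19 (146103604 to 146104612) had 59.2 and 47.9 in KO Treg and 68.0, 58.7 and 68.0 in WT Treg, against 10.7 and 8.15 in KO Tconv replicates 2 and 3 and 4.10 in WT Tconv replicate 2. Element 23 (146129859 to 146131377) averaged 64.0 ± 2.96 in Treg (SD, n = 5), against 12.6 in KO Tconv replicate 2 and 6.74 in WT Tconv replicate 3, the only Tconv libraries with a peak there. In these 3 elements every percentile of the 5 longer Treg lists stood above every Tconv percentile. By fold enrichment the same held at elements 19 and 23. At element 6 the fold values overlapped, 6.82 to 8.67 in these Treg lists and 4.80 to 7.36 in Tconv.

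At the other end of the Rgs window the balance was reversed. Element 2 (145831914 to 145832474), the single Tconv-only element of the 3 windows, had a peak in no Treg library, against percentiles of 21.7, 23.0 and 2.80 in KO Tconv and of 23.6 and 9.26 in WT Tconv replicates 2 and 3. The neighbouring element 1 (145829592 to 145830690) had a peak in all 6 Tconv libraries, at a mean of 17.3 ± 11.2 (SD, n = 6), and in WT Treg replicates 2 and 3 alone among the Treg libraries, at 2.09 and 12.7. Elements 3 to 6, all shared, and element 7, with a peak in a single library, lay between this pair and the first Treg-only element.

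**Figure D3:**
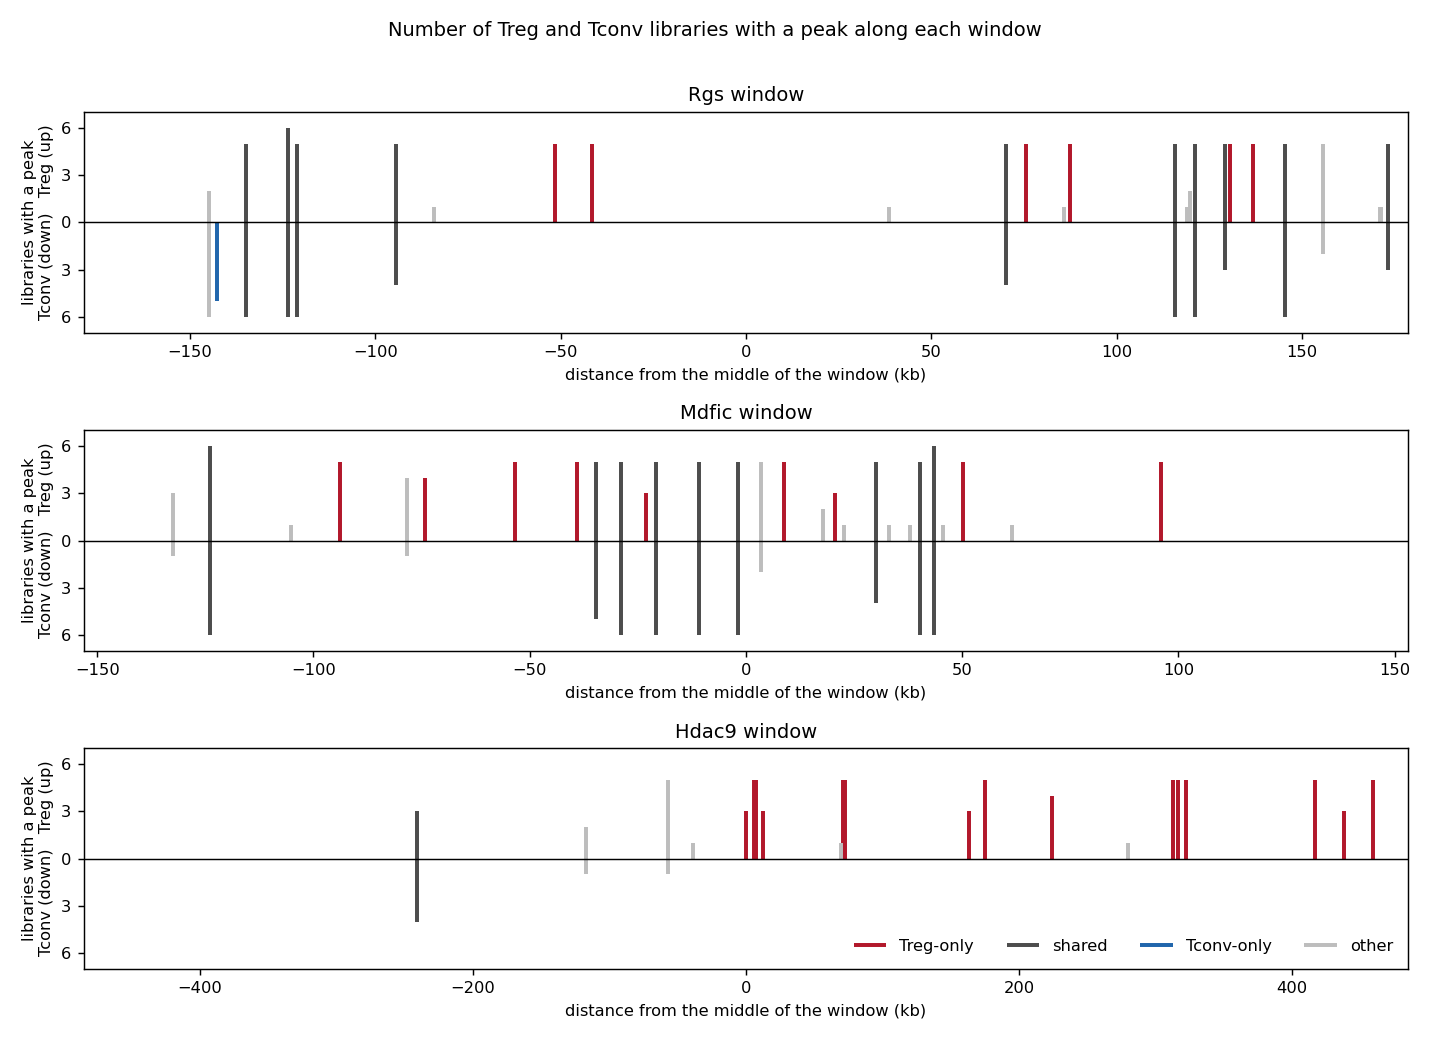
Number of Treg libraries (upward) and Tconv libraries (downward) with a peak in each element of the Rgs, Mdfic and Hdac9 windows, against the distance of the element from the middle of its window in kb. Treg-only elements (red) are interspersed with shared elements (dark grey) in the Rgs and Mdfic windows, and 15 stand in a row in the Hdac9 window with no shared element among them.

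The Mdfic window, around the gene of the I-mfa domain protein, held 9 Treg-only and 9 shared elements, interspersed. Of the Treg-only elements, 6 had a peak in all 5 longer Treg lists, 1 in 4 and 2 in 3 of these lists. The strongest Treg-only element of the 3 windows was Mdfic element 8 (chromosome 6 from 15660317 to 15661350), with percentiles of 51.6 and 76.2 in KO Treg replicates 1 and 3 and of 68.2, 68.4 and 64.0 in WT Treg. Its mean was 65.7 ± 9.02 (SD, n = 5), in the range of the shared elements around it, and it had no peak in any Tconv library. Its fold enrichment was 4.53 to 5.38, and ranked by fold it stood at 32.5.

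Mdfic element 16 (15708342 to 15709141) had percentiles of 47.8 and 61.2 in KO Treg replicates 1 and 3, and of 34.5, 42.3 and 18.1 in WT Treg. Mdfic element 11 (15676444 to 15677105) had 39.1 and 43.6 in KO Treg, and 35.9 in WT Treg replicate 2 alone. Its fold enrichment was low, 3.47 to 3.58, and ranked by fold it stood at 2.96 in place of 39.5. Element 6 (15625241 to 15626495) was missing only in WT Treg replicate 3 among the longer Treg lists, at 30.0 ± 14.7 (SD, n = 4). The remaining 5 had mean percentiles of 12.9 to 21.1. Outside the window, the nearest element on the lower side (15542766 to 15543377) was Treg-only with 5 Treg libraries and a percentile of 37.6. The next one out (15455661 to 15455915) had a peak in 1 Treg and 2 Tconv libraries. On the upper side no Tconv library had a peak from 15745409, inside the window, to 16171664. This stretch of 426 kb held 8 elements, of which 4 were Treg-only, elements 26 and 28 of the window among them.

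Between the Treg-only elements of the Mdfic window lay elements that had peaks in both cell types at unequal ranks. Element 12 (15678609 to 15679774) had a peak in every library but KO Treg replicate 2. Its percentiles were 61.7 and 55.9 in KO Treg and 81.6, 72.0 and 65.7 in WT Treg, against 16.0, 32.3 and 30.3 in KO Tconv and 9.56, 8.59 and 33.3 in WT Tconv. Element 9 (15664961 to 15665684) averaged 61.2 ± 10.4 in Treg (SD, n = 5) and 12.6 ± 8.09 in the 5 Tconv libraries with a peak (SD, n = 5). Element 20 (15729366 to 15730832) averaged 61.1 ± 12.4 in Treg (SD, n = 5) and 11.6 ± 9.98 in 4 Tconv libraries (SD, n = 4). In all 3 the Treg and Tconv percentiles did not overlap, KO Treg replicate 2 apart. Their fold enrichments did overlap: at element 9 they were 3.84 to 5.04 in the 5 longer Treg lists and 4.16 to 4.87 in Tconv. At element 12 they were 4.13 to 6.97 and 4.45 to 5.81, and at element 20 they were 4.54 to 5.79 and 4.31 to 5.06.

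Of the other 6 shared elements of the Mdfic window, 1 ranked alike by −log10 p in both cell types, element 24. This element (15742756 to 15744156) had 88.0, 46.8 and 92.4 in KO Treg and 87.5, 85.1 and 76.7 in WT Treg, against 88.2, 90.6 and 94.6 in KO Tconv and 85.4, 90.4 and 86.8 in WT Tconv. Element 2 (15575338 to 15576894) averaged 82.7 ± 4.49 in Treg (SD, n = 5) and 72.7 ± 4.56 in Tconv (SD, n = 6), with ranges that overlapped. Its median fold enrichment was lower in Treg, at 6.87 in the 5 longer lists against 7.28 in Tconv. Elements 10, 13, 14 and 23 averaged 75.3, 61.4, 58.0 and 69.2 in Treg, against 64.6, 41.8, 38.9 and 49.2 in Tconv, so each of them ranked higher on average in Treg. By median fold enrichment only element 13 was higher in Treg, at 6.25 in the 5 longer lists against 5.80 in Tconv. Elements 10, 14 and 23 had medians of 4.85, 4.67 and 3.64 in these Treg lists, against 5.61, 4.94 and 3.90 in Tconv. In KO Treg replicate 2 element 2 had a peak at a percentile of 0.428, and elements 2 and 24 were the only 2 of the window with a peak in that library. Ranked by fold, element 24 stood at 42.7 in place of 84.4, a mean over all 12 libraries. Its fold enrichment was unequal between the cell types, 4.03 to 4.74 in the 5 longer Treg lists and 5.93 to 6.93 in Tconv.

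The Hdac9 window, around the gene of the class IIa deacetylase, was open in Treg and nearly bare in Tconv. The Tconv libraries had a peak at 0, 1 and 2 of its 21 elements in KO and at 1, 2 and 0 in WT. In Treg the numbers were 14, 0 and 18 in KO and 13, 19 and 15 in WT. None of the 21 elements had a peak in all 6 Tconv libraries, against 7 in the Rgs window and 7 in the Mdfic window. Over the genome, 17138 of the 32787 elements in at least 2 libraries had a peak in all 6. As absence from Tconv chose the windows, nothing is read from these counts. All 15 Treg-only elements lay in the upper part of the window, from 35174603 to 35634598, with a median gap of 15.3 kb between neighbours.

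The strongest element of this row was Hdac9 element 6 (chromosome 12 from 35180687 to 35181360), with percentiles of 69.1 and 60.9 in KO Treg replicates 1 and 3 and of 62.8, 55.3 and 54.0 in WT Treg, a mean of 60.4 ± 6.10 (SD, n = 5). Hdac9 element 16 (35486831 to 35487822) followed with 57.8 and 59.4 in KO Treg, and 69.0, 54.7 and 57.9 in WT Treg, a mean of 59.7 ± 5.43. Hdac9 element 13 (35349581 to 35350289) had 59.8 and 38.5 in KO Treg, and 57.8, 74.2 and 33.9 in WT Treg, a mean of 52.8 ± 16.6, and held the highest fold enrichment of any Treg-only element of the windows, 9.17. These 3 stood apart in rank from most of the row: element 19 (35591299 to 35592570) averaged 39.2 ± 3.53, element 21 (35633451 to 35634598) 33.9 ± 11.5, and the other 10 averaged 16.9 to 30.9.

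Consecutive elements without any Tconv peak ran from 35136165 to 35660897, past the end of the window, a stretch of 525 kb with 19 elements of which 16 were Treg-only. The genome held 1945 such stretches with at least 1 Treg-only element, and in 2 of them, this one included, the number was as high or higher. For the 426 kb stretch at Mdfic there were 45 of this kind, and 339 for each stretch of the Rgs window. As the windows were chosen on this contrast, nothing is read from these ranks. Beyond the Hdac9 stretch lay a shared element (35674697 to 35675724) with 5 libraries of each cell type, at mean percentiles of 89.2 in Treg and 20.1 in Tconv. On the lower side, element 3 (35117374 to 35118581) averaged 51.3 ± 6.65 in Treg (SD, n = 5), against a single Tconv peak at a percentile of 1.33 in WT replicate 2. The single shared element, element 1 (34933705 to 34934323), was weak in both cell types, at 26.7 in KO Treg replicate 3 and 4.56 and 18.9 in WT Treg, against 45.7 and 23.6 in KO Tconv and 32.9 and 22.0 in WT Tconv.

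Over the 3 windows, 22 elements had a peak in the 5 longer Treg lists and in at least 1 Tconv library, and in 7 of them every such Treg percentile exceeded every Tconv percentile. Among these 7, the fold values of Rgs element 6 and of Mdfic elements 9, 12 and 20 overlapped between the cell types. In 0 of the 22 was every Tconv percentile the higher. Across the genome the first pattern was seen at 7.45% of 17325 such elements. The second, which also required a peak in all 6 Tconv libraries, was seen at 370 of them, so it was rare there too. Since the contrast chose the windows, the counts stand as a description. Cut into stretches of equal length, the genome had as many Treg-only elements as the Rgs window in 22 of 7557 stretches of 350 kb, as many as the Mdfic window in 3 of 8813 of 300 kb, and as many as the Hdac9 window in 2 of 2790 of 950 kb. The median stretch of each length had 0. The windows were chosen for having many such elements, so nothing is read from how few stretches matched them.

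The comparison of KO with WT asks whether these elements differ without the Lrrc32 enhancer, and genotype had no part in the choice of the windows. In Treg, no element of the windows was lost (a peak in 0 of 3 KO and 3 of 3 WT libraries) and none was gained (3 of 3 KO and 0 of 3 WT). The count of lost elements was 3 when peaks had to cover 50% of an element, and 1 without WT Treg replicate 1 or without WT Treg replicate 3. With KO Treg replicate 2 left out and 21269 peaks per list, 1 element was gained. Over the 27280 elements of the genome tested in Treg, 1.17% were lost and 0.0367% gained, set beside 59 window elements tested. In Tconv, 0 of 24 window elements were lost and 0 gained, against 0.231% and 0.971% of 26787 elements. With stricter peaks, and without WT Tconv replicate 2, 1 was gained, and 1 was lost at 21269 peaks per list. Fisher's exact test of presence gave a smallest p of 0.4 among the window elements in each cell type. Over all elements the smallest possible two-sided exact p with 3 libraries against 3 is 0.1, so 0 elements could pass 0.05 before or after Benjamini-Hochberg adjustment, and the smallest adjusted p was 1.0.

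KO Treg replicate 2 bore on each of these Treg counts, since it had a peak at 3 of the 75 elements. KO Treg libraries had a peak at 53, 3 and 59 elements, and WT Treg libraries at 54, 63 and 50. The means were 38.3 ± 30.7 in KO and 55.7 ± 6.66 in WT (SD, n = 3 each), and 56.0 ± 4.24 in KO without replicate 2 (SD, n = 2). KO Tconv libraries had a peak at 20, 23 and 22 elements, and WT Tconv libraries at 18, 22 and 19, means of 21.7 ± 1.53 and 19.7 ± 2.08 (SD, n = 3 each). The ranges overlapped in both cell types. Without KO Treg replicate 2, 0 window elements were lost and 0 gained in KO Treg, against 1.17% and 1.3% of the genome's elements.

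In the other Treg libraries most elements with a recurrent peak had it in both genotypes. A peak in KO Treg replicates 1 and 3 and in all 3 WT Treg libraries was found at 44 of the 75 elements, and at 18360 of the 40457 elements of the series. Both of these KO libraries and only 1 WT library had a peak at 4 elements, Mdfic elements 11 and 18 and Hdac9 elements 5 and 8, all Treg-only. Neither KO Treg replicate 1 nor 3 but 2 WT libraries had a peak at 2 elements, Rgs elements 1 and 17. How often elements of the genome were split in these ways was not counted, so nothing is read from 4 against 2. The exact 12-library patterns are narrower classes. That of Mdfic element 11 and Hdac9 element 8 was found at 0.451% of the genome's elements. That of Mdfic element 18 and Hdac9 element 5 was found at 0.375%, and those of Rgs elements 1 and 17 at 0.116% and 0.509%. The Mdfic and Hdac9 elements had no peak in WT Treg replicate 3. Of the 30 Treg-only elements, 29 ± 1.41 had a peak in KO Treg replicates 1 and 3 (SD, n = 2) and 26 ± 2.0 in WT Treg (SD, n = 3), with ranges that met at 28. In the Mdfic window the numbers did not overlap, with 9 and 9 in these KO libraries and 8, 8 and 6 in WT Treg, the only one of the counts by window and class to do so. Over all Treg-only elements of the genome the shares were 84.6% and 85.9% in these KO libraries and 81.6%, 85.3% and 71.3% in WT Treg. No test was made of the window sums over chosen elements, and WT Treg replicate 3 had the shortest list of the 5.

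**Figure D4:**
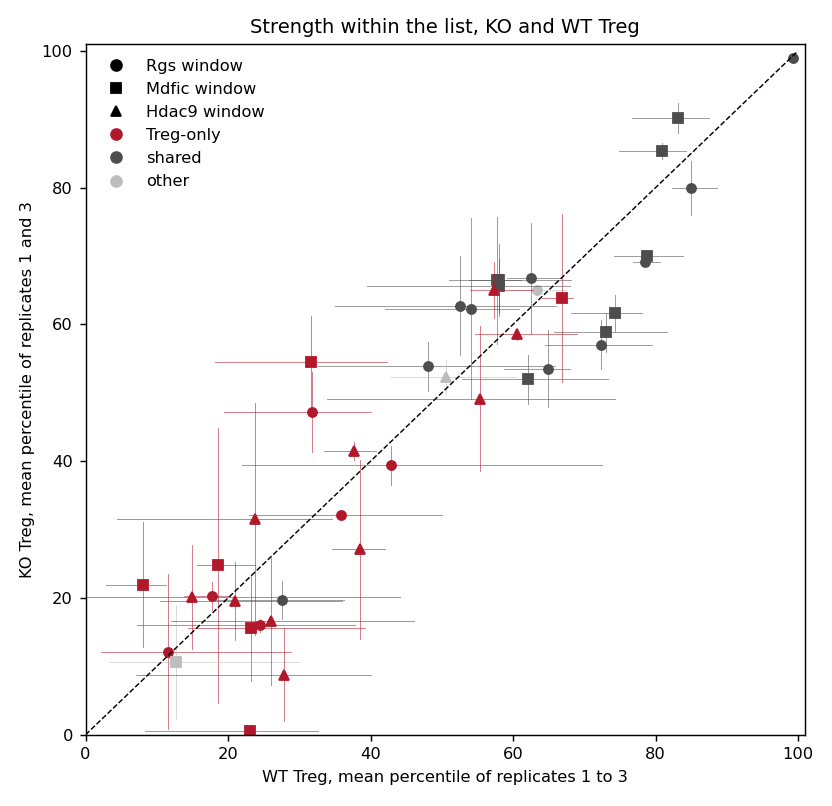
Mean percentile of −log10 p within the list in KO Treg (replicates 1 and 3, y axis) against WT Treg (replicates 1 to 3, x axis) for the 44 elements with a peak in all 5 libraries. Thin lines run from the lowest to the highest library of each genotype, the dashed line marks equal values, and the points lie on both sides of it, with 21 elements higher in KO and 23 lower.

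Ranks within the lists also lay on both sides. Among the 44 elements the KO minus WT difference in mean percentile had a median of −0.829 and ran from −22.5 to 22.8, and it was positive for 21 and negative for 23. The 2 extremes were both Treg-only elements of the Mdfic window. Mdfic element 16 was highest in KO, with the values given above. Mdfic element 26 (15749995 to 15750562) had 0.350 and 0.888 in KO Treg replicates 1 and 3, against 8.39, 32.6 and 28.4 in WT Treg. Both KO values lay above all 3 WT values at 6 of the 44 elements and below them at 6, against 10.04% and 10.6% of the genome's 18360 elements with a peak in these 5 libraries. By window these counts were 1 above and 2 below of 17 in the Rgs window, 5 and 4 of 16 in the Mdfic window, and 0 and 0 of 11 in the Hdac9 window. For the 22 Treg-only elements among the 44 the median KO minus WT difference was −1.64, against 4.42 for the 1035 Treg-only elements of the genome with a peak in these libraries. The lists differ in length, so a difference in rank is a description and no measure of accessibility.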

How the data were processed

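ATAC-seq peaks of 12 libraries were used. Each library has its own deposited broad peak list and was grouped by its title. Peak names inside the lists carry another running number than the lists do, and lists were assigned to samples as deposited. The submitters' processing notes list MACS2, Bowtie2, DESeq2, DiffBind and Trim Galore 0.4.4 without saying what each did, and the build NCBIM37. Versions of the others, read filters and any shifting of cut sites were not stated. The columns the authors deposited are a score, a fold ratio, and the −log10 of a p-value and of a q-value for each peak. Ranks were taken only within one list, and fold values of different lists are set side by side as a description. As the lists hold no counts, no count model was run.

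Peaks of all libraries that overlapped or touched were merged. A library had an element when any base of it was covered, and an element took its strongest peak. Coordinates are 1-based. KO and WT were compared by two-sided Fisher's exact tests over all elements found in at least 2 of the 6 libraries of a cell type, with Benjamini-Hochberg adjustment. In each window the text names the 3 Treg-only and the 2 shared elements with the highest mean percentile and every element lost or gained; other elements were named after their values were seen. The genes, windows and classes were chosen with earlier results of these data known. Markers of cell types and related genes were not analysed here, since the gene table at hand is of GRCm38.p6. The tools were Python 3.11.15, scipy 1.17.1, pandas 2.3.3, numpy 2.4.6 and matplotlib 3.10.9.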

Additional observations from a re-analysis of the deposited data

How the results depend on the processing

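The 30 Treg-only elements were counted again under other settings. With stricter peaks (−log10 q of at least 5) the counts were 8 in the Rgs, 4 in the Mdfic and 7 in the Hdac9 window, 19 in all. With equal numbers of peaks (5262 per list) they were 0 in each window and 0 in all, since these elements rank too low to be among so few peaks. With 21269 peaks per list and KO Treg replicate 2 left out they were 6, 6 and 13. In the other settings (50% coverage, joining across 200 bp, a minimum of 2 or 5 Treg libraries, windows widened by 100 kb, and the 5 longer Treg lists, the last chosen after seeing the data) the total ran from 22 to 37. Leaving out single libraries gave 6 to 6, 7 to 10 and 11 to 16 elements, 24 to 31 in all.

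The count of elements lost in KO Treg was 3 at 50% coverage, and 0 to 1 with single libraries left out (1 without WT Treg replicate 1 and 1 without WT Treg replicate 3). It was 0 to 0 for gains in KO Treg, and 1 for gains at 21269 peaks per list without KO Treg replicate 2. In KO Tconv, 1 element was lost in that setting, 1 was gained with stricter peaks, and leaving out libraries gave 0 to 0 lost and 0 to 1 gained (1 without WT Tconv replicate 2). The KO minus WT difference in elements per library was −17.3 in Treg and 2.0 in Tconv. Leaving out libraries moved it to between −27.7 and 0.333 in Treg, the last without KO Treg replicate 2 (a change of sign), and to between 1.17 and 3.17 in Tconv. In Treg it was −1.33 at 5262 peaks per list, 2.5 at 21269 without KO Treg replicate 2 (again the other sign), −10.0 with stricter peaks and −14.7 at 50% coverage; these count as kept below because the KO spread is 30.7. In Tconv it was 0.0 at 5262 peaks per list, −0.333 at 21269 without KO Treg replicate 2, and 4.33 at 50% coverage. The cause was not tested where the construction of the setting does not show it.

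Taking KO and WT libraries of one number as pairs (replicate block) gave 0 lost and 0 gained elements and differences of −17.3 in Treg and 2.0 in Tconv. Deviations of same-numbered libraries from their group means correlated at −0.00729 to 0.0555 in Treg and −0.0242 to −0.0150 in Tconv. Those of libraries with different numbers correlated at −0.0407 to 0.0447 in Treg and −0.000164 to 0.0159 in Tconv. With 3 libraries per group, these values cannot show whether libraries of one number were paired. Ranked by fold in place of −log10 p, 9 of the 14 named elements moved by more than their spread between libraries. Over 206 alternatives, 180 kept their value within 1.5 times or within the spread, and 26 did not. For ranks by fold the spread alone counted, so some of the 26 had moved by less than 1.5 times. The 180 include alternatives with little or no room to move. Leaving out a library of one cell type left each genotype result of the other unchanged. Pairing leaves a difference of means the same by construction. The number kept is therefore no measure of robustness. Unknown read depth and the −log10 p limit of each list restrict what absence of a peak can show.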
